A study of Mus musculus with 30 samples.

Results

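The 10 genes described here encode proteins by which blood vessels capture leukocytes, hold their endothelial lining together and sprout: the selectins Sele and Selp, the adhesion molecules Vcam1 and Icam1, the junction proteins Pecam1 and Cdh5, and the angiogenic genes Kdr, Vegfa, Angpt2 and Esm1. They were chosen by symbol, and every probe set that carried one of these symbols was taken, which gave 18 of the 45037 probe sets on the array that are not controls. Of these, 16 passed the filter on dim probe sets and were tested. The other two, Vcam1 1436003_at and Angpt2 1459636_at, had mean log2 intensities of 3.25 and 3.66 and were left out. RNA came from the whole shaved backskin of female 129–C57BL/6 mice aged 8 to 12 weeks, either wild type (WT) or lacking D6 (D6-deficient), an atypical chemokine receptor that removes inflammatory chemokines and is known from lymphatic endothelium. The phorbol ester TPA, an irritant that inflames skin, was painted on at 50 µM in acetone in 3 applications, 24 h apart, and skin was taken 1, 2, 4 or 6 days later. Mice of both genotypes that received acetone alone are the day 0 groups, although some labels also call them untreated. Each of the 10 genotype-by-day groups held 3 arrays, labelled as biological replicates. The loss of D6 was not limited to one cell type, and no array measured endothelium alone. Fewer cells of a type and less RNA per cell therefore cannot be told apart.

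During inflammation, endothelium displays E-selectin and P-selectin, on which leukocytes tether and roll, and then ICAM-1 and VCAM-1, to which leukocyte integrins bind firmly. PECAM-1 and VE-cadherin (Cdh5) sit at the contacts between endothelial cells, which leukocytes cross. VEGF-A drives vessel growth through the receptor encoded by Kdr, while angiopoietin-2, stored in endothelial granules, acts on the Tie receptor system and loosens resting vessels.

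Values are log2 of the deposited array intensities, which are relative measures, so a probe set was compared with itself between groups and never with another. A probe set is said to have risen, fallen or changed where limma's moderated test, fitted on all 30 arrays and 36029 probe sets, gave a Benjamini-Hochberg adjusted p below 0.05. The D6 gene (Ccbp2) checked the labels by 1 of its probe sets, 1422112_at, which read 4.15 to 5.76 on the WT arrays and 3.30 to 3.86 on the D6-deficient arrays. Its other probe sets overlapped between genotypes, 1422111_at with 5.14 to 6.26 against 4.55 to 5.42 and 1437937_at with 6.69 to 8.54 against 6.59 to 8.09. The median log2 intensity of an array lay between 5.64 and 5.80, and the median standard deviation within a group was 0.187. Leukocyte markers in day 0 skin were uneven, with a summed level (log2 of the summed intensities of 9 genes) of 14.55 to 14.78 in WT and 14.36 to 15.11 in D6-deficient mice.

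The sequences just upstream of the genes for the leukocyte-capturing proteins are shown because those genes are induced by inflammatory signals. RefSeq promoter sequences (GRCm38.p6) were at hand for 6 of the 10 genes, Sele, Selp, Icam1, Kdr, Vegfa and Esm1. The 250 bases before each transcription start were searched on both strands for an NF-kappaB motif (GGG, any 3 bases, then TTCC), an AP-1 motif (TGANTCA), to which factors induced by phorbol esters bind, and a hypoxia response motif (ACGTG), in which N is any base. The windows printed are chr1:164047984-164048233 for Sele, chr1:164115014-164115263 for Selp and chr9:21015690-21015939 for Icam1, all on the plus strand, with AP-1 matches in capitals and none of the 3 motifs in the Icam1 window.
Sele: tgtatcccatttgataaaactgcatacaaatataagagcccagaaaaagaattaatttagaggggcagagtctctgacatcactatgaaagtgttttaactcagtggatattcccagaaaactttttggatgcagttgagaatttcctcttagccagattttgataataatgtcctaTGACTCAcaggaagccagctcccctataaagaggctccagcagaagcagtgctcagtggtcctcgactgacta
Selp: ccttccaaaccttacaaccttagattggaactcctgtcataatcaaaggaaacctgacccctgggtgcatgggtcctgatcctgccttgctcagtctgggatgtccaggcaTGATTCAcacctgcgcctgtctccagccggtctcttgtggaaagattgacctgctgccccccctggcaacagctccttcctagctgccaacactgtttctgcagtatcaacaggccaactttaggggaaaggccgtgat
Icam1: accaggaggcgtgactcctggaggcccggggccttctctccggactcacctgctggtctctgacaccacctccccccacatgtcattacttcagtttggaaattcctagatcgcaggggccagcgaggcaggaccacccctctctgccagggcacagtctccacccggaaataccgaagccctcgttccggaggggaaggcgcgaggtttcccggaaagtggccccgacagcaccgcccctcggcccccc
The Sele match began 73 bases before the start and the Selp match 139 bases before it. Of 32841 promoter windows of this length, 6.75% held the AP-1 motif, 4.65% the NF-kappaB motif and 16.6% the hypoxia motif. Among the windows of the 6 genes, no other AP-1 match and no match to the NF-kappaB motif as written was found. That motif is strict. Stretches differing from it in a base, such as tggaaattcc in the Icam1 window and ggatattccc in the Sele window, were not counted. The search therefore cannot show that NF-kappaB sites are absent. A second Vegfa start (window chr17:46025164-46025413, minus strand) held 1 hypoxia match, 211 bases before it. The Sele window lies within the span annotated for the gene (1:164039614-164058487). So do the second Vegfa window (gene span 17:46016993-46032377) and the Kdr window (gene span 5:75932827-75979072). A match describes letters, not a bound site.

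By their brightest probe sets, Sele, Selp, Icam1, Pecam1, Cdh5 and Angpt2 had their highest group mean on day 4 in both genotypes, and none of them was above control on day 6 past the threshold. All of them passed against control on day 4 in D6-deficient skin, but in WT skin only Sele, Selp and Angpt2 did. The WT mean of Cdh5 was 7.15 on day 4 against 7.13 in controls. On day 4, 10 of the 16 probe sets had changed in WT skin, 9 of them upward, beside 39.1% of all tested probe sets changed in either direction and 17.3% upward, and their median change was 0.56 on the log2 scale against 0.00566 for all tested. In D6-deficient skin 13 of 16 had risen and none had fallen on day 4, beside 41.1% of all changed and 18.8% upward, with a median change of 0.98 against 0.00699. The genotypes stood further apart on day 2: 4 of 16 had changed in WT skin, 2 in each direction (26.1% of all changed), while 10 of 16 had risen and none had fallen in D6-deficient skin (38.1% of all changed, 17.5% upward). On day 1 the changes numbered 3 of 16 in WT skin (24% of all), below the background, and 7 of 16 in D6-deficient skin (36.3% of all), a little above it. On day 6 they numbered 2 of 16 in WT skin (22.1% of all) and 5 of 16 in D6-deficient skin (31.7% of all). The day 2 count in D6-deficient skin fell to 5 without D6-deficient day 0 replicate 2 or D6-deficient day 2 replicate 2, and the WT day 6 count fell to 1 without WT day 0 replicate 1 or 3 or WT day 6 replicate 2 or 3. Probe sets of the same gene are not independent, so the counts were also taken by the brightest probe set of each gene. On day 4, 4 of 10 genes had then changed in WT skin, 3 of them upward, and 7 of 10 had risen in D6-deficient skin. On day 2, 2 of 10 had fallen and none had risen in WT skin, while 4 of 10 had risen and none had fallen in D6-deficient skin.

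**Figure D1:**
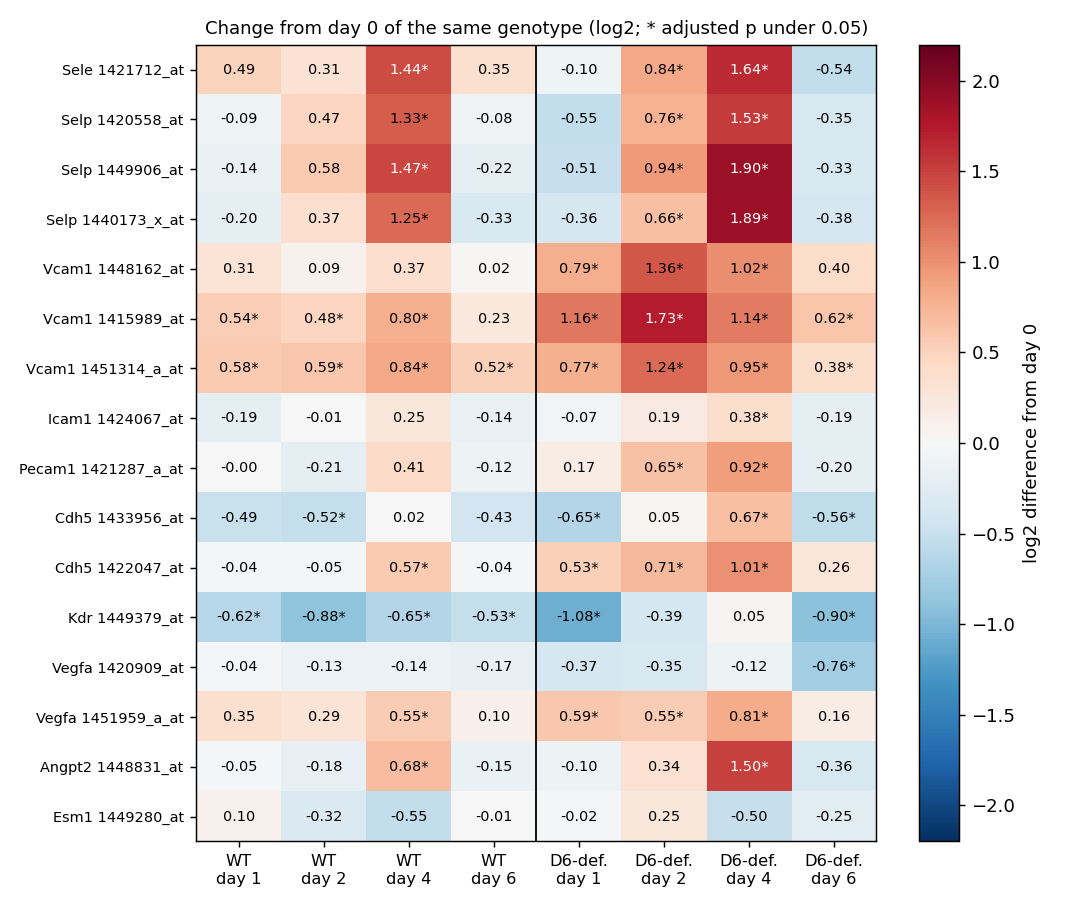
Log2 change from day 0 of the same genotype for each of the 16 tested probe sets (lines) on each day of each genotype (columns), with an asterisk for an adjusted p below 0.05. The selectins, Angpt2 and Pecam1 are darkest on day 4, Vcam1 is darkest on day 2 in D6-deficient skin, and Kdr falls on all 4 days in WT skin.

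E-selectin and P-selectin, the receptors on which leukocytes first roll, rose on day 4 in both genotypes, by 2.52-fold to 3.11-fold by their brightest probe sets. The log2 level of Sele (1421712_at, its only probe set) was 6.80, 6.08 and 6.36 in WT control skin and 8.05, 7.93 and 7.59 in WT skin on day 4. In D6-deficient mice the control arrays read 7.09, 6.15 and 6.75 and the day 4 arrays 8.47, 8.37 and 8.06. All day 4 arrays of either genotype were above all control arrays of that genotype, and the rise was 1.44 ± 0.29 (SE, n = 3 per group) on the log2 scale in WT (limma adjusted p = 0.000327, 2.71-fold) and 1.64 ± 0.29 in D6-deficient skin (limma adjusted p = 6.81e-05, 3.11-fold).

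On day 2 Sele had passed the threshold in D6-deficient skin and not in WT skin. The WT arrays read 6.99, 6.83 and 6.36, overlapping their controls, and the D6-deficient arrays 7.62, 7.75 and 7.13. The D6-deficient values all lay above their controls and rose by 0.84 (limma adjusted p = 0.0246). That call was lost without D6-deficient day 0 replicate 2 (limma adjusted p = 0.16) and without D6-deficient day 2 replicate 1 (0.0732) or replicate 2 (0.103), and the genotype difference on day 2, 0.77, had a limma adjusted p of 0.153. On day 6 the WT arrays read 7.12, 6.92 and 6.26 and the D6-deficient arrays 5.89, 5.90 and 6.59, and neither group differed from its controls past the threshold.

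Selp (1420558_at) followed the same course. Its log2 level was 9.52, 8.95 and 8.94 in WT controls and 10.55, 10.23 and 10.63 in WT skin on day 4, a rise of 1.33 ± 0.25 (SE, n = 3 per group; limma adjusted p = 0.000138, 2.52-fold). In D6-deficient skin it was 9.61, 8.97 and 9.0 in controls and 11.10, 10.60 and 10.49 on day 4, a rise of 1.53 (limma adjusted p = 2.21e-05, 2.89-fold). Day 4 and control arrays did not overlap in either genotype. The other Selp probe sets, 1449906_at and 1440173_x_at, rose by 1.47 and 1.25 in WT and by 1.90 and 1.89 in D6-deficient skin, though the letter x in the second name marks probes that can also match other transcripts.

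On day 2 the D6-deficient Selp arrays, 9.88, 9.97 and 10.01, were above all controls, with a rise of 0.76 (limma adjusted p = 0.0169) that was lost without D6-deficient day 0 replicate 2 (0.0766) or replicate 3 (0.0716). The WT arrays on day 2 read 9.76, 9.80 and 9.27 and overlapped their controls. P-selectin is also made by platelets. Of 7 platelet markers, 2 had risen and none had fallen on day 4 in WT skin and 3 had risen and 1 had fallen in D6-deficient skin, led by Ppbp (log2 change 5.68 and 6.13) and Pf4 (1.45 and 1.99). The summed level of the 7 on day 4 was 12.89 to 13.52 in WT and 13.02 to 13.30 in D6-deficient skin, from 11.43 to 12.18 and 11.12 to 11.71 in controls. Among the genes of platelet surface receptors, the integrin subunit gene Itga2b differed from control by 0.07 in WT and 0.27 in D6-deficient skin on day 4 and Gp1ba by 0.19 and 0.07, none of them past the threshold. In D6-deficient skin Gp9 rose by 0.56 (limma adjusted p = 0.0078, lost without D6-deficient day 4 replicate 2, at 0.0591) and Gp1bb fell by 0.35 (limma adjusted p = 0.0431). In WT skin both were above control, by 0.02 and 0.20 respectively, short of the threshold. The part of platelets in the Selp result was not tested.

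**Figure D2:**
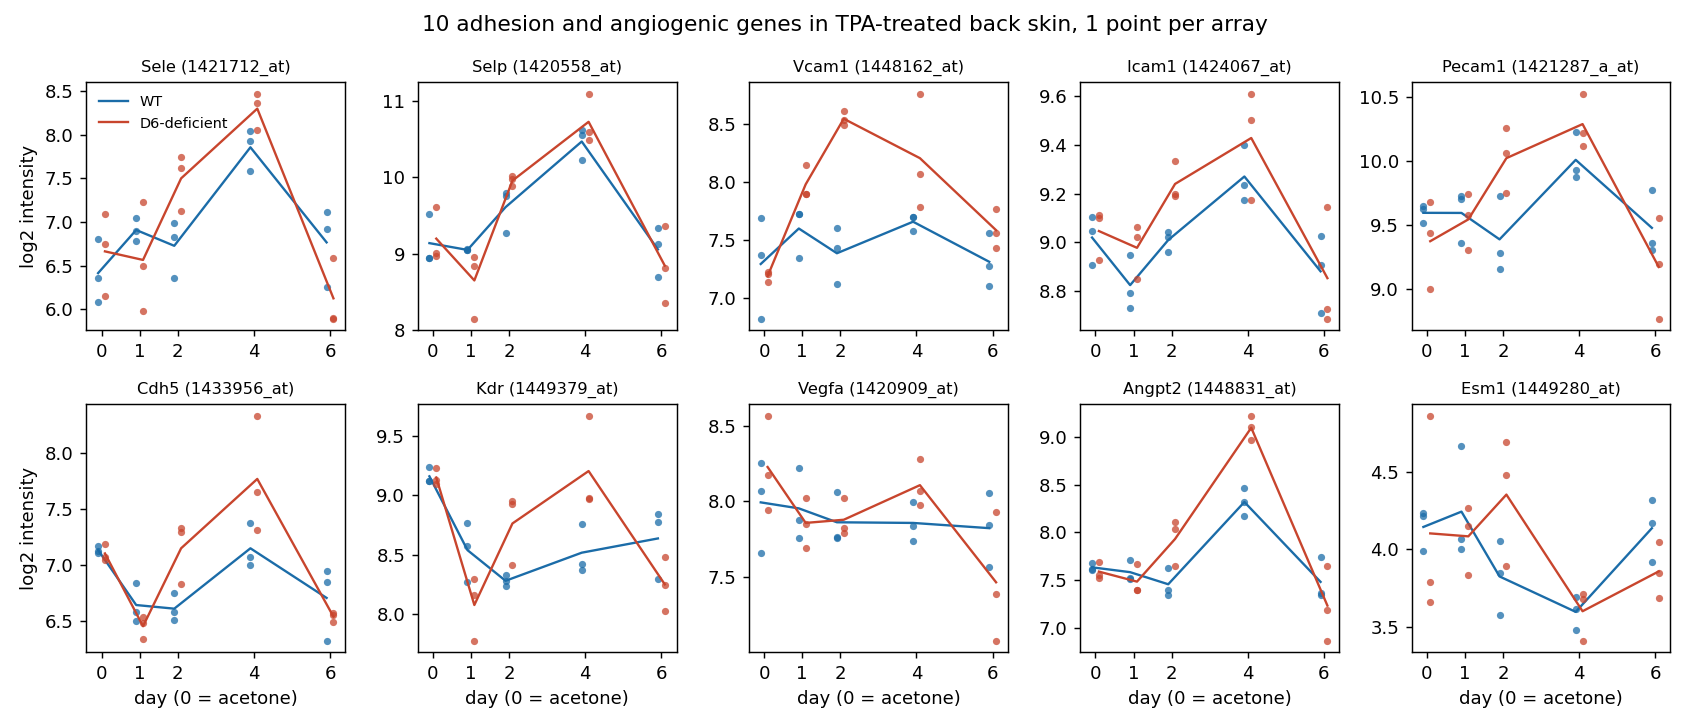
Log2 intensity of each of the 10 genes, by the probe set with the highest mean, against day (day 0 is acetone control). Each point is 1 array, 3 per group, lines join group means, and each panel has its own axis, so heights are not comparable between panels. Sele, Selp and Angpt2 peak on day 4 in both genotypes, and the D6-deficient Vcam1 points on day 2 (8.49 to 8.62) lie above all WT points of the gene.

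VCAM-1, to which integrins of monocytes and lymphocytes bind, was the one member with a genotype difference past the threshold on day 2, and its rise in D6-deficient skin came early. Its brightest probe set, 1448162_at, read 6.82, 7.69 and 7.37 in WT control skin and 7.12, 7.60 and 7.43 in WT skin on day 2. In D6-deficient skin it read 7.20, 7.13 and 7.22 in controls and 8.49, 8.62 and 8.53 on day 2. The WT arrays of these days overlapped, while the D6-deficient day 2 arrays lay more than 1 log2 unit above all their controls, a rise of 1.36 ± 0.20 (SE, n = 3 per group; limma adjusted p = 1.01e-05, 2.57-fold).

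The other Vcam1 probe sets gave the same direction. The log2 level of 1415989_at was 6.55, 6.96 and 6.64 in WT controls, 7.10, 7.34 and 7.15 in WT on day 2, 6.30, 6.39 and 6.44 in D6-deficient controls and 8.19, 8.19 and 7.96 in D6-deficient skin on day 2. That of 1451314_a_at was 6.17, 6.21 and 6.35, then 6.61, 6.94 and 6.96 in WT, and 6.24, 6.32 and 6.27, then 7.56, 7.52 and 7.46 in D6-deficient skin. With these probe sets WT skin also rose by day 2, by 0.48 (limma adjusted p = 0.00265) and 0.59 (limma adjusted p = 0.00124), and D6-deficient skin rose by 1.73 ± 0.11 (limma adjusted p = 1.05e-10, 3.33-fold) and 1.24 ± 0.13 (limma adjusted p = 7.02e-08, 2.36-fold), with SE over n = 3 per group.

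The rise of Vcam1 in D6-deficient skin was present by day 1, when 1448162_at read 7.90, 7.90 and 8.15 and the 3 probe sets were higher than controls by 0.79, 1.16 and 0.77. In WT skin on day 1, 1448162_at read 7.34, 7.72 and 7.73, overlapping its controls, and the other probe sets rose by 0.54 and 0.58. By day 4 the genotypes were closer. On that day 1448162_at read 7.70, 7.57 and 7.70 in WT and 8.76, 7.78 and 8.07 in D6-deficient skin, and 1415989_at 7.56, 7.43 and 7.57 against 7.41, 7.59 and 7.57, so that the latter overlapped between genotypes. Against controls the D6-deficient rise on day 4 was 1.02, 1.14 and 0.95, and the WT rise 0.80 and 0.84 by the last pair of probe sets and 0.37 (limma adjusted p = 0.158) by the first.

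On day 6 the changes were smaller. Vcam1 1451314_a_at was still 0.52 above control in WT (limma adjusted p = 0.00502) and 0.38 in D6-deficient skin (limma adjusted p = 0.0255), the second resting on D6-deficient day 6 replicate 3, without which it was 0.18 (limma adjusted p = 0.228), and being lost also without D6-deficient day 0 replicate 1 (0.0699) or replicate 3 (0.0633). By 1415989_at it was 0.62 above control in D6-deficient skin (limma adjusted p = 0.000224). In WT skin the value of 1415989_at, 0.23, did not pass (limma adjusted p = 0.149). The brightest probe set, 1448162_at, passed in neither genotype. Its WT mean was 7.31 on day 6 against 7.29 in controls, and its D6-deficient change was 0.40 (limma adjusted p = 0.139). The fourth Vcam1 probe set, 1436003_at, read between 2.98 and 3.71 over all arrays and was too dim to test.

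**Figure D3:**
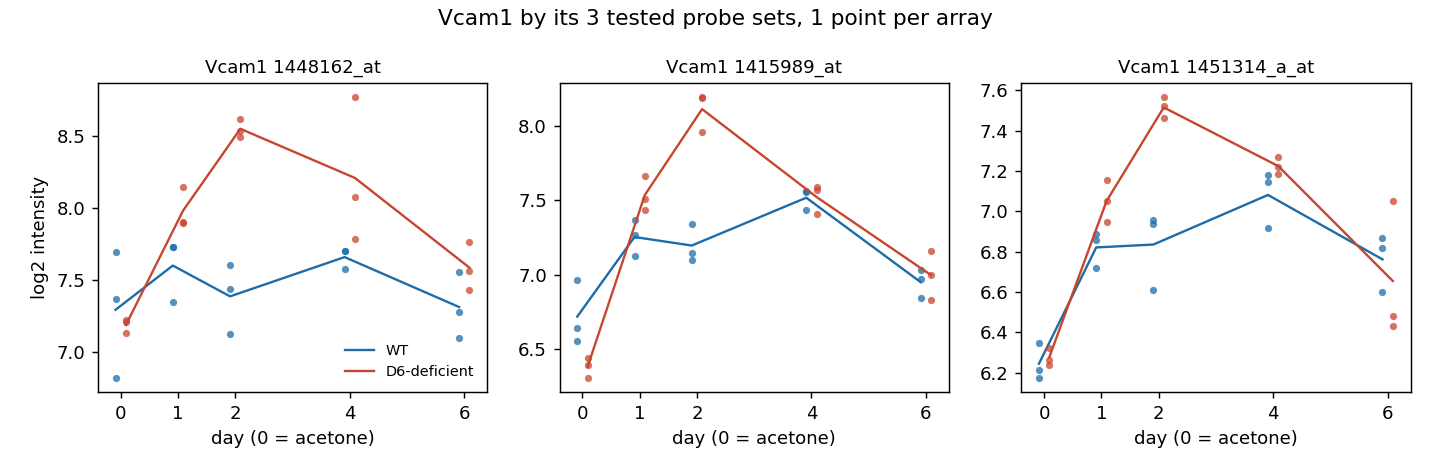
Log2 intensity of Vcam1 by each of its 3 tested probe sets against day, 1 point per array and lines through group means, WT in blue and D6-deficient in red, each panel with its own axis. On day 2 every red point is above every blue point in all 3 panels, and on day 6 the colours overlap.

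Icam1, whose product is the ligand of the beta-2 integrins of neutrophils, moved little. Its log2 level by 1424067_at was 9.05, 8.91 and 9.11 in WT controls and 9.17, 9.40 and 9.24 in WT skin on day 4, a change of 0.25 short of the threshold (limma adjusted p = 0.111). In D6-deficient skin it was 8.93, 9.10 and 9.11 in controls and 9.61, 9.17 and 9.50 on day 4, a rise of 0.38 (limma adjusted p = 0.0146). The day 4 arrays were above the controls in both genotypes, but by little. The D6-deficient call was lost without D6-deficient day 4 replicate 1 (limma adjusted p = 0.085) or replicate 3 (0.0555) or D6-deficient day 0 replicate 1 (0.0704), and no other day passed in either genotype.

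Of the junction genes, Pecam1 rose in D6-deficient skin on days 2 and 4 and Cdh5 gave probe sets that moved differently. Pecam1 (1421287_a_at) had a log2 level of 9.63, 9.51 and 9.65 in WT controls, 9.28, 9.73 and 9.16 on day 2 and 10.23, 9.93 and 9.88 on day 4. In D6-deficient mice the controls read 9.44, 9.0 and 9.68, the day 2 arrays 9.75, 10.26 and 10.06 and the day 4 arrays 10.53, 10.12 and 10.22. In D6-deficient skin every array of days 2 and 4 was above every control, and the rise was 0.65 on day 2 (limma adjusted p = 0.0129) and 0.92 on day 4 (limma adjusted p = 0.000736, 1.89-fold). The day 2 call was lost without D6-deficient day 0 replicate 2 (limma adjusted p = 0.102) or D6-deficient day 2 replicate 2 (0.0758), and in WT skin the day 4 value, 0.41, did not pass (limma adjusted p = 0.109), though it did with only the arrays of the contrast (0.0326).

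Cdh5, which encodes VE-cadherin, was below control early by its brighter probe set, 1433956_at, and above it on day 4 in D6-deficient skin. This probe set read 7.11, 7.12 and 7.17 in WT controls, 6.50, 6.58 and 6.84 on day 1, 6.58, 6.75 and 6.51 on day 2 and 7.38, 7.0 and 7.07 on day 4. In D6-deficient skin it read 7.05, 7.19 and 7.07 in controls, 6.34, 6.53 and 6.48 on day 1, 6.83, 7.29 and 7.33 on day 2 and 8.33, 7.32 and 7.66 on day 4. Day 1 was below controls in both genotypes without overlap, and on day 2 the WT arrays were still below their controls while the D6-deficient arrays lay on either side of theirs.

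The fall of Cdh5 1433956_at passed in D6-deficient skin on day 1 (-0.65, limma adjusted p = 0.0082) and in WT skin on day 2 (-0.52, limma adjusted p = 0.0398), the latter lost without any of its 6 arrays (limma adjusted p from 0.0508 without WT day 2 replicate 2 to 0.117 without WT day 2 replicate 3). On day 4 it stood 0.67 above control in D6-deficient skin (limma adjusted p = 0.00576), a value that was 0.38 without D6-deficient day 4 replicate 1 (limma adjusted p = 0.0717), against 0.02 in WT skin (limma adjusted p = 0.959). On day 6 it was below control in D6-deficient skin by -0.56 (limma adjusted p = 0.023), lost without D6-deficient day 0 replicate 2 (0.0728) or D6-deficient day 6 replicate 1 (0.064).

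The dimmer Cdh5 probe set, 1422047_at, showed no fall. It read 4.83, 4.85 and 4.62 in WT controls, 4.66, 4.78 and 4.70 on day 2 and 5.55, 5.20 and 5.24 on day 4. In D6-deficient skin it read 4.45, 4.08 and 4.44, then 5.06, 5.33 and 4.71 on day 2 and 5.11, 5.46 and 5.43 on day 4. It rose in WT skin on day 4 by 0.57 (limma adjusted p = 0.00503) and in D6-deficient skin on days 1, 2 and 4 by 0.53, 0.71 and 1.01 (limma adjusted p = 0.00965, 0.000779 and 1.15e-05), the day 1 call being lost without D6-deficient day 0 replicate 2 (0.0693). The probe sets of Cdh5 thus disagreed on the early days, and its day 4 rise was shared by both of them in D6-deficient skin alone.

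Kdr, the gene of the main VEGF-A receptor of endothelium, was the one member that fell on all 4 days in WT skin. By 1449379_at its log2 level was 9.24, 9.12 and 9.12 in WT controls, 8.27, 8.76 and 8.58 on day 1, 8.32, 8.28 and 8.23 on day 2, 8.76, 8.42 and 8.37 on day 4 and 8.84, 8.30 and 8.77 on day 6. No treated WT array reached the lowest control. The change was -0.62 on day 1 (limma adjusted p = 0.0181), -0.88 ± 0.19 (SE, n = 3 per group) on day 2 (limma adjusted p = 0.0012), -0.65 on day 4 (limma adjusted p = 0.00872) and -0.53 on day 6 (limma adjusted p = 0.0487). The day 1 call was lost without WT day 0 replicate 1 (limma adjusted p = 0.0653) or WT day 1 replicate 1 (0.11), and that of day 6 without any of 5 arrays: WT day 0 replicate 1 (0.136), replicate 2 (0.084) or replicate 3 (0.082), or WT day 6 replicate 2 (0.284) or replicate 3 (0.0503).

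In D6-deficient skin Kdr was lowest on day 1 and near its control level on day 4. Its level was 9.13, 9.23 and 9.10 in controls, 7.77, 8.16 and 8.29 on day 1, 8.41, 8.95 and 8.93 on day 2, 9.67, 8.98 and 8.97 on day 4 and 8.24, 8.02 and 8.48 on day 6. The day 4 arrays spanned the control range, whereas those of days 1 and 6 lay well below it. The change was -1.08 on day 1 (limma adjusted p = 0.00011, a fall of 2.11-fold), -0.39 on day 2 (limma adjusted p = 0.112), 0.05 on day 4 (limma adjusted p = 0.845) and -0.90 on day 6 (limma adjusted p = 0.00085).

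The probe sets of Vegfa, the growth factor itself, disagreed. The brighter, 1420909_at, read 8.07, 7.66 and 8.26 in WT controls and 7.74, 8.00 and 7.84 in WT skin on day 4, and 8.17, 8.57 and 7.94 in D6-deficient controls and 7.97, 8.28 and 8.07 on day 4. These groups overlapped, and the single day on which this probe set differed from control past the threshold was day 6 in D6-deficient skin, with a fall of 0.76 (limma adjusted p = 0.00405) and arrays at 7.39, 7.08 and 7.93. The other, 1451959_a_at, read 7.20, 7.26 and 7.59 in WT controls and 7.99, 7.86 and 7.86 on day 4, and 7.50, 6.96 and 6.97 in D6-deficient controls and 7.63, 8.23 and 7.99 on day 4, so that its day 4 arrays were above its controls in both genotypes.

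Vegfa 1451959_a_at rose by 0.55 in WT skin on day 4 (limma adjusted p = 0.0158) and by 0.59, 0.55 and 0.81 in D6-deficient skin on days 1, 2 and 4 (limma adjusted p = 0.012, 0.0162 and 0.000684). The WT call was lost without WT day 0 replicate 1 (limma adjusted p = 0.0687) or replicate 2 (0.0541) or WT day 4 replicate 1 (0.0552). Of the D6-deficient calls, that of day 1 was lost without D6-deficient day 0 replicate 2 (0.0619) or replicate 3 (0.0621) and that of day 2 without D6-deficient day 0 replicate 2 (0.0793) or replicate 3 (0.0782) or D6-deficient day 2 replicate 2 (0.117), while that of day 4 was not lost without any 1 array.

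Angpt2, which encodes angiopoietin-2, rose past the threshold on day 4 alone. By 1448831_at its log2 level was 7.62, 7.61 and 7.68 in WT controls, 7.35, 7.63 and 7.40 on day 2, 8.32, 8.17 and 8.47 on day 4 and 7.74, 7.37 and 7.34 on day 6. In D6-deficient skin it was 7.69, 7.52 and 7.56, then 7.65, 8.11 and 8.03 on day 2, 9.22, 8.96 and 9.10 on day 4 and 7.19, 6.87 and 7.65 on day 6. The day 4 arrays stood above all other arrays of their genotype, and every D6-deficient array of day 4 was above every WT array of that day. The rise was 0.68 ± 0.16 (SE, n = 3 per group) in WT (limma adjusted p = 0.00111, 1.61-fold) and 1.5 ± 0.16 in D6-deficient skin (limma adjusted p = 4.2e-08, 2.84-fold). The D6-deficient value on day 2, 0.34, did not pass (limma adjusted p = 0.0868) but did without D6-deficient day 2 replicate 1 (0.48, limma adjusted p = 0.0255). The dim probe set Angpt2 1459636_at, which was not tested, read 4.19, 3.94 and 3.76 in D6-deficient skin on day 4 and had its highest value of all arrays there.

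Esm1, which encodes the secreted proteoglycan endocan and is known from sprouting vessel tips, passed the threshold against control on no day in either genotype. Its log2 level by 1449280_at, 3.41 to 4.86 over all arrays, was close to the filter on dim probe sets. On day 4 it was 3.48, 3.61 and 3.69 in WT and 3.71, 3.41 and 3.68 in D6-deficient skin, from 4.21, 3.99 and 4.23 and 3.79, 4.86 and 3.66 in controls. The WT arrays of day 4 were all below their controls, with a value of -0.55 that did not pass (limma adjusted p = 0.0739) but passed with quantile normalization repeated (0.0482), with only the arrays of the contrast (0.00808) and by the methods' t-test after Benjamini-Hochberg adjustment (0.031). In D6-deficient skin the values, 0.25 on day 2 and -0.50 on day 4, passed without D6-deficient day 0 replicate 2 (0.63, limma adjusted p = 0.023) and without D6-deficient day 0 replicate 3 (-0.73, limma adjusted p = 0.029) respectively.

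The comparison of genotypes on the same day asks whether the level of these genes in whole skin differed with the loss of D6. It singled out Vcam1 on day 2 and Angpt2 on day 4. In control skin and on day 1 none of the 16 probe sets differed between genotypes by limma (1.57% and 0.0555% of all tested did), with 2 at an unadjusted p below 0.05 on each day. On day 2, 3 of 16 differed (4.45% of all, 2.46% upward), all of Vcam1 and all higher in D6-deficient skin, on day 4 1 of 16 (0.513% of all), and on day 6 none (0.125% of all) with 1 at an unadjusted p below 0.05. The day 2 count was 6 without D6-deficient day 2 replicate 1, and the day 4 count was 0 without WT day 4 replicate 1 or 2 or D6-deficient day 4 replicate 1 and 2 without D6-deficient day 4 replicate 2.

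Vcam1 1448162_at on day 2 exceeded its WT level in D6-deficient skin by 1.16 ± 0.20 (SE, n = 3 per group; 95% interval 0.75 to 1.58, limma adjusted p = 0.000711, 2.24-fold). The difference was 0.92 ± 0.11 by 1415989_at (0.69 to 1.15, limma adjusted p = 9.57e-06, 1.89-fold) and 0.68 ± 0.13 by 1451314_a_at (0.42 to 0.94, limma adjusted p = 0.00158, 1.60-fold). No array of one genotype overlapped the other, and no call was lost when any 1 array was left out. Leukocyte markers also differed between genotypes on day 2: 4 of 9 were higher in D6-deficient skin and none was lower, and their summed level was 15.88 to 16.19 in WT and 16.20 to 16.38 in D6-deficient skin. Of 16 endothelial markers 3 were higher and none was lower, with a summed level of 13.17 to 13.42 against 13.38 to 13.79, and the part of either in the Vcam1 result was not tested.

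The other members pointed the same way on day 2 without passing in the main fit. All 16 of 16 probe sets were higher in D6-deficient skin, beside 46.6% of all tested, their median difference was 0.479 against -0.0156, and 9 had an unadjusted p below 0.05, beside 15.5% of all. Sele differed by 0.77 (limma adjusted p = 0.153), Pecam1 by 0.64 (0.078), Cdh5 1433956_at by 0.54 (0.113), Kdr by 0.48 (0.177) and Angpt2 by 0.47 (0.0901). Without D6-deficient day 2 replicate 1, Pecam1 (limma adjusted p = 0.0485), Cdh5 1433956_at (0.046) and Angpt2 (0.0315) passed. Pecam1 also passed without WT day 2 replicate 2 (limma adjusted p = 0.0373), and Cdh5 with its probe sets averaged (0.015). These probe sets were measured on the same 6 arrays and are not independent of each other.

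On day 4 Angpt2 was higher in D6-deficient skin by 0.78 ± 0.16 (SE, n = 3 per group; 95% interval 0.46 to 1.10, limma adjusted p = 0.017, 1.71-fold). The arrays did not overlap, but the call was lost without WT day 4 replicate 1 (limma adjusted p = 0.0543) or replicate 2 (0.114) or D6-deficient day 4 replicate 1 (0.0767). Kdr and Cdh5 1433956_at differed by 0.69 (limma adjusted p = 0.109) and 0.62 (0.153) on that day and did not pass. No endothelial marker of the 16 differed between genotypes on day 4, though their summed level was 13.30 to 13.59 in WT and 13.65 to 13.91 in D6-deficient skin, without overlap, and its part in the Angpt2 result was not tested.

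**Figure D4:**
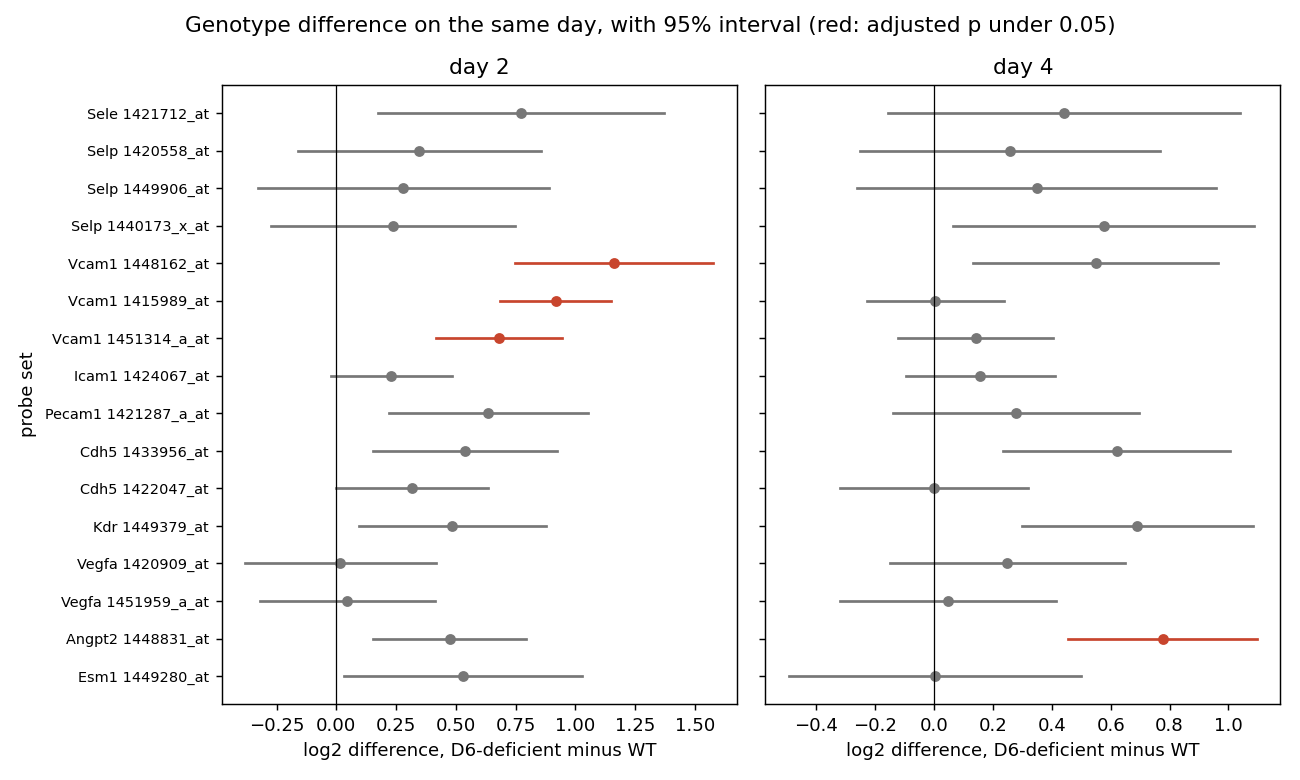
Log2 difference between genotypes (D6-deficient minus WT) for each of the 16 tested probe sets on day 2 and on day 4, with 95% intervals, red where the adjusted p is below 0.05. On day 2 the points all lie to the right of 0 and the 3 Vcam1 probe sets (0.68 to 1.16) are red, and on day 4 Angpt2 (0.78) is.

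Whether the change from control itself differed between genotypes was tested by an interaction term. On day 2, 4 of 16 passed, all upward (5.4% of all tested, 2.78% upward): Vcam1 1448162_at, whose D6-deficient change exceeded the WT change by 1.27 ± 0.28 (SE; limma adjusted p = 0.00791), Vcam1 1415989_at by 1.26 ± 0.16 (limma adjusted p = 3.25e-05), Vcam1 1451314_a_at by 0.65 ± 0.18 (limma adjusted p = 0.0334) and Cdh5 1422047_at by 0.76 ± 0.22 (limma adjusted p = 0.041). The first pair passed whichever array was left out. The other Vcam1 value was lost without any of 7 of its 12 arrays (limma adjusted p up to 0.115, without WT day 2 replicate 1) and the Cdh5 value without any of 9 of 12 (up to 0.148, without D6-deficient day 2 replicate 2), so that the count was 2 without, for example, WT day 0 replicate 2 or D6-deficient day 2 replicate 1. By limma none of 16 passed on day 1 (0.0194% of all), day 4 (0.608% of all) or day 6 (0.025% of all), with 2, 5 and 3 at an unadjusted p below 0.05. The value for Angpt2 on day 4 was 0.82 (limma adjusted p = 0.0898).

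From one day to the next, WT skin showed its steps between days 2 and 4 and between days 4 and 6, and D6-deficient skin already between days 1 and 2. In WT skin none of 16 probe sets changed from day 1 to 2 by limma (1.2% of all tested, 3 of 16 at an unadjusted p below 0.05), 7 rose from day 2 to 4 (14.5% of all changed, 7.16% upward) and 8 fell from day 4 to 6 (22.1% of all, 10% downward). In D6-deficient skin 8 rose from day 1 to 2 (10.4% of all changed, 5.18% upward), 5 rose and 2 fell from day 2 to 4 (16.3% of all), and 15 fell from day 4 to 6 (31.4% of all, 14.5% downward). Esm1 was the exception to that last fall, with 0.26 (limma adjusted p = 0.443). These counts depended on single arrays: the WT rise to day 4 was 2 without WT day 2 replicate 3, the WT fall to day 6 was 5 without WT day 6 replicate 3, and the D6-deficient steps were 4 without D6-deficient day 2 replicate 2 and 3 without D6-deficient day 2 replicate 1, while the last fall kept 13 to 15. By the brightest probe set of each of the 10 genes, 4 rose from day 2 to 4 and 4 fell from day 4 to 6 in WT skin. In D6-deficient skin 4 genes rose from day 1 to 2, 3 rose and 1 fell from day 2 to 4, and 9 fell from day 4 to 6.

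The largest of these steps belonged to the selectins and Angpt2. From day 4 to 6 in D6-deficient skin, Sele fell by 2.17 (limma adjusted p = 3.25e-06), Selp 1420558_at by 1.89 (limma adjusted p = 2.58e-06) and Angpt2 by 1.86 (limma adjusted p = 3.5e-09). In WT skin over the same days they fell by 1.09 (limma adjusted p = 0.00775), 1.42 (limma adjusted p = 0.00016) and 0.84 (limma adjusted p = 0.00032), the Sele value being -0.84 without WT day 6 replicate 3 (limma adjusted p = 0.0677). Whether these falls differed between genotypes was not tested. From day 2 to 4 in D6-deficient skin Vcam1 1415989_at fell by 0.59 (limma adjusted p = 0.00058) from its highest level. The other tested Vcam1 probe sets did not pass. The brightest, 1448162_at, gave -0.34 (limma adjusted p = 0.29), though it passed without D6-deficient day 4 replicate 1 (-0.62, limma adjusted p = 0.0333). Over the same step Esm1 fell by 0.75 (limma adjusted p = 0.0326), a call lost without any of 5 of its 6 arrays (limma adjusted p up to 0.154, without D6-deficient day 2 replicate 1).

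Genes with related roles gave the setting. Of 16 other endothelial markers, none had risen and 2 had fallen on day 2 in WT skin and 7 had risen and none had fallen in D6-deficient skin, while on day 4 5 had risen and 6 had fallen in WT and 8 had risen and 1 had fallen in D6-deficient skin. All 16 were bright enough to be tested, and they did not move in 1 direction in WT skin on day 4. Emcn, the gene of the endothelial sialomucin endomucin, rose by 1.37 and the transcription factor gene Sox18 by 0.82 in D6-deficient skin on day 2. In WT skin on day 4 Ecscr rose by 1.08 and Vwf, the gene of von Willebrand factor, fell by 1.46.

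Of 8 other genes of the VEGF family and its receptors, 3 had risen and 2 had fallen on day 4 in each genotype. Figf, the gene of VEGF-D, rose by 1.19 in WT and by 1.44 in D6-deficient skin, and Pgf, the gene of placental growth factor, by 1.09 and 1.25. Vegfb fell by 1.07 in WT skin. Of 5 other genes of the angiopoietin and Tie system, none had risen and 2 had fallen in WT skin on day 4, the receptor gene Tek by 1.03 and the phosphatase gene Ptprb by 0.78, while in D6-deficient skin 1 had risen, Angpt1 by 0.93, and none had fallen.

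Of 10 Notch and tip cell genes, 2 had risen and 2 had fallen on day 4 in WT and 6 had risen and 1 had fallen in D6-deficient skin. The chemokine receptor gene Cxcr4 rose by 1.35 in WT and by 1.91 in D6-deficient skin, and Apln, the gene of the vessel-sprouting peptide apelin, by 0.84 and 1.84. Its receptor gene Aplnr rose by 0.73 in D6-deficient skin, against 0.41 in WT skin, short of the threshold. Of 11 other adhesion and junction genes, 2 had risen and 5 had fallen on day 4 in WT and 3 had risen and 3 had fallen in D6-deficient skin. Icam2 rose by 1.29 in D6-deficient skin, and the sialomucin gene Cd34 fell by 1.45 in WT and by 1.25 in D6-deficient skin.

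The leukocyte partners of the adhesion molecules were measured too. Of 12 counter-receptor genes, 9 had risen and none had fallen on day 4 in each genotype, and on day 2 5 had risen and 1 had fallen in WT and 8 had risen and none had fallen in D6-deficient skin. Between genotypes on day 2, 3 of the 12 were higher in D6-deficient skin, among them Itgb2, the beta-2 integrin chain that binds ICAM-1, by 0.76 and its partner chain Itgal by 0.69. The Itgb2 call was lost without WT day 2 replicate 1 (limma adjusted p = 0.0536) and the Itgal call without WT day 2 replicate 3 (0.0838) or D6-deficient day 2 replicate 2 (0.0535) or replicate 3 (0.0717).

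Of 9 cytokine and NF-kappaB feedback genes, 7 had risen on day 4 in WT skin, 4 had risen in D6-deficient skin and none had fallen in either, with Il1b up by 4.58 and 4.45. Of 9 hypoxia target genes, 6 had risen and 1 had fallen on day 4 in WT and 4 had risen and none had fallen in D6-deficient skin, with the vasodilator gene Adm up by 2.54 and 3.28 and the carbonic anhydrase gene Car9 up by 2.15 in each.

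Other cell types in the skin moved on the same days. On day 4, of 6 pericyte markers 5 had fallen in WT skin, 3 had fallen in D6-deficient skin and none had risen, of 6 lymphatic markers 1 had risen and 3 had fallen in each genotype, and of 5 keratinocyte markers 1 had risen and 2 had fallen in WT and none had risen and 4 had fallen in D6-deficient skin. Of 5 muscle and fat markers, 5 had fallen in WT skin, 3 had fallen in D6-deficient skin and none had risen. The summed keratinocyte level on day 4 was 14.28 to 14.62 in WT and 13.59 to 14.12 in D6-deficient skin, from 14.74 to 14.82 and 15.23 to 15.34 in controls. The part of these shifts in the day 4 results was not tested.

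**Figure D5:**
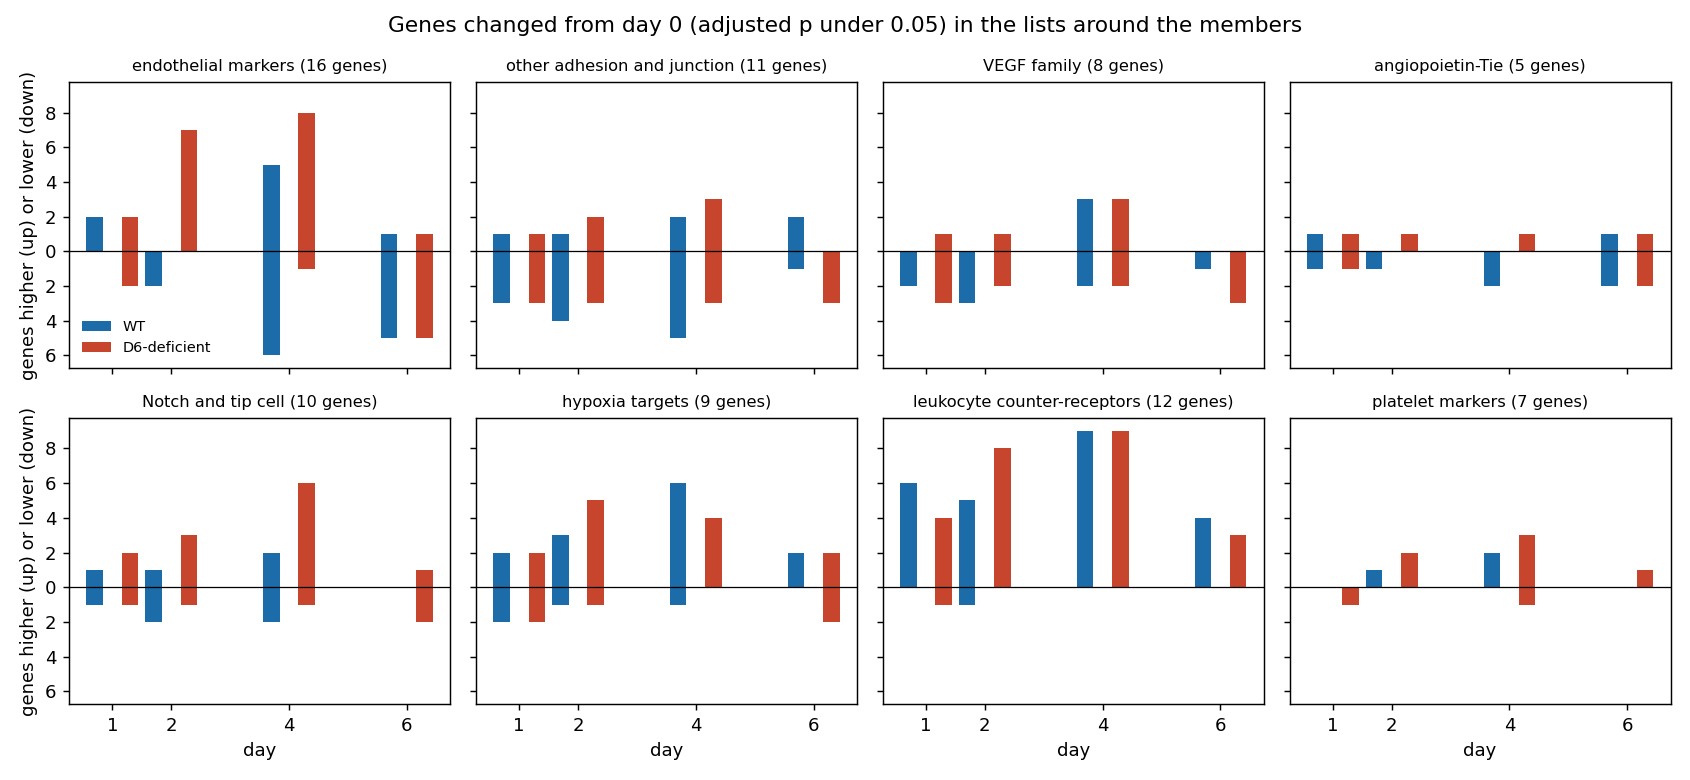
Number of genes that rose (bars up) or fell (bars down) from day 0 at an adjusted p below 0.05 on each day in 8 lists of related genes, WT in blue and D6-deficient in red, with the number of genes tested in each list. Endothelial markers go up without any going down on day 2 in D6-deficient skin (7 of 16), and leukocyte counter-receptors go up in both genotypes on day 4 (9 of 12).

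The shape of each gene's course was described by the Pearson correlation of its 10 group means with those of 8303 probe sets whose means ranged over at least 1 log2 unit. It is a description over groups of the same arrays, and carries no test. Sele was most like She (0.978) and Trpm2 (0.974). Selp was most like Pik3r5 (0.996), Pira2 (0.992) and Csf2rb (0.987). Pecam1 was most like Bmx (0.977), Cd93 (0.974) and Jam2 (0.965). Vcam1 was most like D13Ertd608e (0.957), Lgals3bp (0.951) and Slfn9 (0.948), Icam1 was most like Iigp1 (0.982) and Angpt2 was most like Ch25h (0.986), Sfmbt2 (0.979) and Prok2 (0.976). Cdh5 was most like Dysf (0.982), Kdr like Anxa1 (0.917), Vegfa like Socs2 (0.913) and Esm1 like Ppfia4 (0.934). Among the members, Sele correlated with Pecam1 at 0.944, with Angpt2 at 0.939 and with Selp at 0.93, whereas Vcam1 correlated with Selp at 0.461 and with Kdr at -0.0387.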

How the data were processed

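Whole-skin RNA had been hybridized to Affymetrix mouse arrays, 1 sample per array. The authors deposited linear intensities after RMA, which subtracts background, quantile-normalizes and summarizes probes, and no aligner or counter was involved. Here log2 of the intensities was taken, 64 control probe sets were removed, and the 20% of probe sets with the lowest mean over the arrays (9008, all below 3.72) were not tested, which left 36029. limma 3.58.1 (R 4.3.3) fitted 1 mean per genotype and day on all 30 arrays, with eBayes and Benjamini-Hochberg adjustment within each of 23 contrasts. The study's methods named a t-test with a 3-fold threshold, which was run as an alternative. With 3 arrays per group an exact permutation test cannot go below a p of 0.1, so none was used for single values. The number of arrays limits the precision. The probe set with the highest mean was quoted first, and the others were given where they disagreed. From each gene list up to 3 of the genes with the largest changes that passed were eligible to be named. Members and lists were chosen with earlier results of these data known. Scripts were tested on simulated data. Dependence on filter, scaling, block, arrays used and averaging of probe sets was recomputed. The values of 1 list gene are not reported here.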

Additional observations from a re-analysis of the deposited data

Results flagged for a closer look

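The change from control on day 2 differed between genotypes, by a test of the difference itself (an interaction term in limma), for 4 of the 16 member probe sets, all upward, beside 5.4% of all tested probe sets in either direction and 2.78% upward. The D6-deficient change exceeded the WT change by 1.27 for Vcam1 1448162_at, by 1.26 for Vcam1 1415989_at, by 0.65 for Vcam1 1451314_a_at and by 0.76 for Cdh5 1422047_at, all on the log2 scale. The last pair of calls was lost without any of 7 and of 9 of their 12 arrays respectively, which left 2 of the 4 without, for example, WT day 2 replicate 1 or D6-deficient day 2 replicate 2. The day 0 arrays enter this contrast: for Vcam1 1448162_at the WT controls ranged from 6.82 to 7.69 and the D6-deficient controls from 7.13 to 7.22, and for Cdh5 1422047_at they ranged from 4.62 to 4.85 and from 4.08 to 4.45. On day 2 itself the genotypes did not overlap for Vcam1 1448162_at (7.12 to 7.60 against 8.49 to 8.62). For Cdh5 1422047_at they did, at 4.66 to 4.78 against 4.71 to 5.33.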

How the results depend on the processing

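Of 107 changes of member probe sets that passed, none reversed under any alternative, and the number that still passed was 105 without the filter on dim probe sets, with arrays centred, with quantile normalization repeated and with a replicate block, 98 of 98 with the lowest 40% left out, 104 with the hybridization control set as a block, 91 with only the arrays of the contrast and 50 of 53 with probe sets averaged. Of 261 member values that did not pass, 22 passed under an alternative that left no replicate out and 19 without 1 array, so that not passing also depended on the processing. The replicate numbers showed no sign of a pairing. Deviations of same-numbered arrays had a median correlation of -0.0097, over 0.1 in 31 of 135 pairs. Those of differently numbered arrays had 0.00785, over 0.1 in 63 of 270 pairs. With the replicate block the WT day 6 count was 1 in place of 2, as it was without the filter, with centring, with the control set as a block and with only the arrays of the contrast. The last setting also gave 3 on D6-deficient day 6, 0 for genotype on day 4 and 1 for the interaction on day 4.

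The methods' t-test with a 3-fold threshold, and limma with that threshold, gave the same counts: 0 for each change from control except D6-deficient day 2 (1) and day 4 (3), 0 for genotype on days 2 and 4 and for the interaction on day 2, and 0 between neighbouring days except WT day 4 to 6 (1) and D6-deficient day 4 to 6 (5). After Benjamini-Hochberg adjustment the methods' t-test gave 1, 2 and 0 for WT days 1, 2 and 6, 4, 8 and 1 for D6-deficient days 2, 4 and 6, 0 for genotype on days 2 and 4, 2 for the interaction on day 2, and for neighbouring days 0 and 2 in WT (days 2 to 4 and 4 to 6) and 0, 0 and 2 in D6-deficient skin (days 1 to 2, 2 to 4 and 4 to 6). For the t-test the interaction compared the genotypes on a day after the day 0 median of each genotype was subtracted. The spread of the day 0 arrays thus did not enter it, unlike in limma. Averaging the probe sets of a gene gave 2 genes in place of 1 for WT day 1, for genotype on day 2 and for the interaction on day 2. The cause of these differences was not tested.

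Leaving out 1 array at a time, the counts ranged from 2 to 3 on day 1, 3 to 3 on day 2, 9 to 10 on day 4 and 1 to 2 on day 6 in WT, and from 5 to 9, 5 to 9, 11 to 14 and 4 to 6 in D6-deficient skin. They ranged from 3 to 6 and 0 to 2 for genotype on days 2 and 4, from 2 to 4 for the interaction on day 2, from 2 to 7 and 5 to 9 for the later WT steps, and from 4 to 9, 3 to 6 and 13 to 15 for the D6-deficient steps. The count stayed at 0 for the remaining comparisons. Within the 17 and 13 arrays that the spike-in hybridization controls set apart, an alternative chosen after seeing the data, 83 called values could be had in both sets and all 83 kept their direction. A group then held 1 or 2 arrays per set, and groups that do not overlap keep their direction in any such split. Sizes varied: against control, D6-deficient Sele on day 2 was 0.035 in the set of 17 and 1.24 in the other. D6-deficient Vegfa 1451959_a_at on day 4 was 0.135 and 1.15. The D6-deficient day 6 arrays all lie in 1 set, so that none of the D6-deficient calls of day 6, including the falls from day 4, could be checked this way. Of 206 changes of named list genes, 1 reversed: Trp63 on D6-deficient day 2 went from -0.41 to 0.0098 with probe sets averaged. Signal limits the dim probe sets, Esm1 and Cdh5 1422047_at among them.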
